A study of Mus musculus with 2 samples.

Results

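The transcripts of 6 chemokine receptors, *Cxcr3*, *Cxcr6*, *Ccr2*, *Cx3cr1*, *Cxcr4* and *Cxcr2*, were counted in CD45+ cells of the mouse brain. They were taken by gene symbol, and each matched 1 of the 27998 rows of the gene table. The cells came from C57Bl/6 mice at postnatal day 21, from twitcher mice (twi, galc-/-) and from wild-type littermates (WT, galc+/+). Twi mice lack the lysosomal enzyme galactocerebrosidase and model globoid cell leukodystrophy, a demyelinating disease; neither genotype was treated. Cells of several animals were pooled by genotype, sorted on CD45 and made into 1 single-cell 3′ library per genotype. There was therefore no replicate: no difference between genotypes was tested, the animals of a pool cannot be told apart, and all intervals below cover counting error only.

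Chemokine receptors are G protein-coupled receptors that steer leukocytes along gradients of small secreted ligands. *Cxcr3* binds the interferon-induced ligands Cxcl9 and Cxcl10 and is typical of activated T cells and NK cells, while *Cxcr6* binds Cxcl16 and is typical of tissue-resident and innate-like T cells. *Ccr2* binds Ccl2 and related ligands and lets classical monocytes leave the bone marrow. *Cx3cr1* binds fractalkine and marks microglia and non-classical monocytes, *Cxcr4* binds Cxcl12 and holds developing B cells and neutrophils in the marrow, and *Cxcr2* binds Cxcl1, Cxcl2 and relatives and calls neutrophils out of it.

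The genes lie on 3 chromosomes of GRCm38. *Cxcr3* (ENSMUSG00000050232) is X-linked, at chrX:101731535-101734269 on the minus strand. *Cxcr6* (ENSMUSG00000048521, chr9:123806475-123811760) and *Ccr2* (ENSMUSG00000049103, chr9:124101950-124113557) are both on the plus strand of chromosome 9, with 290.2 kb between them. *Cx3cr1* (ENSMUSG00000052336) lies on the same chromosome, at chr9:119901616-120069879 on the minus strand. *Cxcr2* (ENSMUSG00000026180, chr1:74153989-74161246, plus strand) and *Cxcr4* (ENSMUSG00000045382, chr1:128588199-128592293, minus strand) are on chromosome 1. The library reads the polyadenylated 3′ end of a transcript, so one count, a unique molecular identifier (UMI), stands for one captured mRNA whatever the length of the gene.

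After removal of cells with more than 15% mitochondrial UMIs, 1271 WT cells (3741477 UMIs, median 2222 per cell) and 1207 twi cells (4791200 UMIs, median 3182) remained, and no barcode was shared. Cells were placed in 9 classes by the number of marker genes they carried, none of them a receptor studied here. Class sizes differed widely between the libraries. Effector CD8 T-like cells made up 19 WT and 319 twi cells and gamma-delta T-like cells 10 and 46, while there were 557 and 163 B-like cells and 227 and 58 neutrophil-like cells. NK-like (86 and 73), naive CD8 T-like (80 and 85), CD4 T-like (48 and 70), monocyte-like (30 and 45) and microglia-like cells (19 and 16) were closer in number. A further 110 WT and 216 twi T cells had neither a clear CD4, CD8 nor gamma-delta call. In every class of each library, more of the class's own markers than of any other list stood among the 10 leading genes. The cells were placed largely by these markers, so this is not an independent check. For gamma-delta T-like cells it rests on 1 marker in WT and 2 in twi. *Xist*, which is transcribed only from an inactive X chromosome, was seen in 0 of 1271 WT cells (a count of 0 still permits 0.236%) and in 574 twi cells (47.6%), so *Xist* and genotype differ together between the pools. The values were also computed in cells with a Y-linked transcript and no *Xist* (487 WT, 207 twi).

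Over all cells, *Cxcr6*, *Cxcr3* and *Ccr2* were higher in twi and *Cxcr2*, *Cxcr4* and *Cx3cr1* were lower. *Cxcr6* had 192 WT and 1779 twi UMIs, or 51.3 and 371 CPM (UMIs scaled to the library or class total), a ratio of 7.24 (95% interval 6.23 to 8.44). *Cxcr3* had 189 and 1012 UMIs, 50.5 and 211 CPM, a ratio of 4.18 (3.58 to 4.91). *Ccr2* had 380 and 823 UMIs, 102 and 172 CPM, a ratio of 1.69 (1.5 to 1.91). The other 3 receptors were lower. *Cxcr2* had 241 WT and 82 twi UMIs, 64.4 and 17.1 CPM, a ratio of 0.27 (0.20 to 0.34). *Cxcr4* had 299 and 159 UMIs, 79.9 and 33.2 CPM, a ratio of 0.42 (0.34 to 0.51). *Cx3cr1* had 291 and 215 UMIs, 77.8 and 44.9 CPM, a ratio of 0.58 (0.48 to 0.69). Thus 2 of the 6 receptors were at least 2-fold higher in twi, against 6.01% of the 11672 genes with at least 10 UMIs, and 2 were at least 2-fold lower, against 9.57%. Among cells with a Y transcript and no *Xist*, all 6 ratios kept their direction, at 5.65 for *Cxcr6* and 2.72 for *Cxcr3*. In a whole library, more cells of a type and more RNA per cell cannot be told apart, so each receptor was next followed into its classes.

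**Figure D1:**
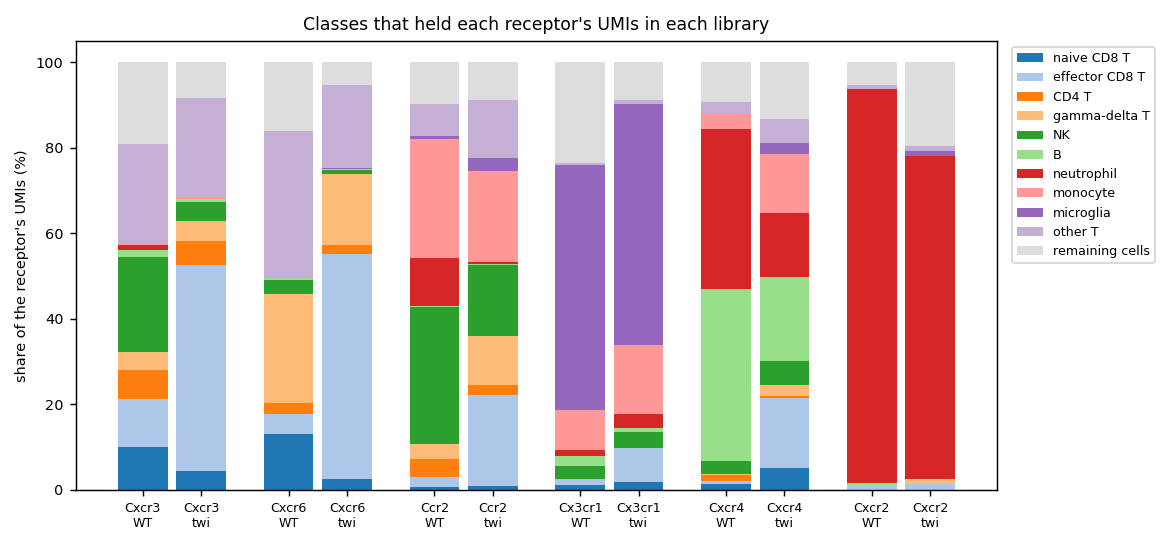
Share of each receptor's UMIs (percent, stacked to 100) held by each class in the WT and twi libraries; grey is the remaining cells. Effector CD8 T-like cells held 4.69% of *Cxcr6* UMIs in WT and 52.6% in twi, while neutrophil-like cells held most *Cxcr2* UMIs and microglia-like cells most *Cx3cr1* UMIs in both.

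The receptors differed in the classes that held most of their UMIs, and some classes held several receptors. Neutrophil-like cells held 222 of 241 WT *Cxcr2* UMIs (92.1%) and 62 of 82 in twi (75.6%). Microglia-like cells, 1.49% of WT and 1.33% of twi cells, held 57.4% and 56.3% of the *Cx3cr1* UMIs. *Ccr2* was spread over NK-like (31.8% of WT UMIs), monocyte-like (27.9%) and, in twi, effector CD8 T-like cells (21.4%, from 2.37% in WT). *Cxcr4* was held mostly by B-like (40.1%) and neutrophil-like cells (37.5%) in WT, which held 19.5% and 15.1% in twi. For *Cxcr3*, the largest named class changed from NK-like cells in WT (22.2% of its UMIs) to effector CD8 T-like cells in twi (48.1%). For *Cxcr6* it changed from gamma-delta T-like cells (25.5%) to effector CD8 T-like cells (52.6%). The T cells without a clear call, which are not a named class, held more than these in WT. They had 23.3% of the *Cxcr3* and 34.4% of the *Cxcr6* UMIs in WT, and 23.1% and 19.3% in twi.

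**Figure D2:**
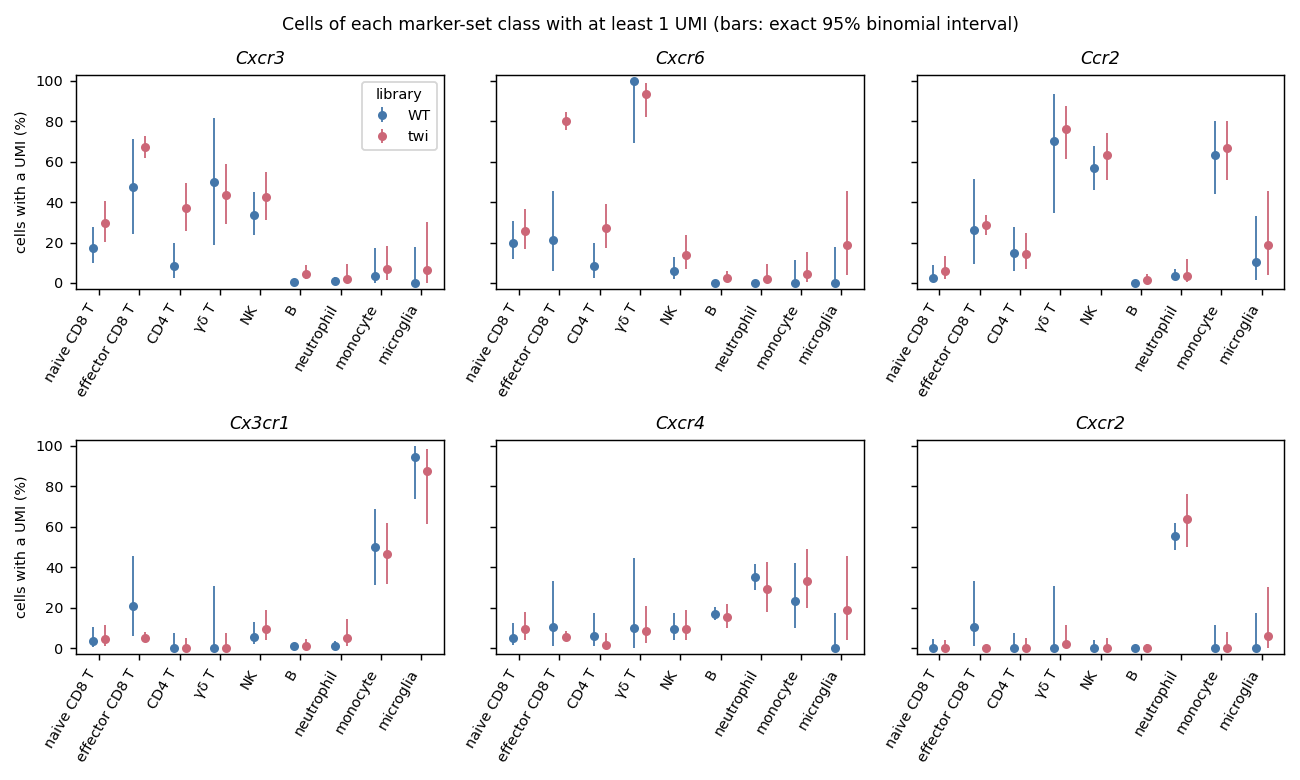
Cells with at least 1 UMI of each receptor, in percent of the class, in WT and twi; points are shares and bars exact 95% binomial intervals. The intervals lie apart for *Cxcr6* in effector CD8 T-like cells and for *Cxcr3* in CD4 T-like and B-like cells, while *Ccr2*, *Cxcr4* and *Cxcr2* overlap in their main classes.

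Effector CD8 T-like cells, defined by cytotoxic and activation genes such as *Gzmk*, *Ccl5* and *Nkg7*, carried both *Cxcr3* and *Cxcr6*. Of the interferon-induced genes, *Isg15* was among the 10 leading genes of the class in both libraries, and *Ifit3* and *Herc6* in WT. The twi over WT ratio of *Cxcr6* had an interval above 1 and that of *Cxcr3* an interval that included 1. *Cxcr6* was found in 4 of 19 WT cells (21.1%, exact 95% interval 6.05 to 45.6%) and in 256 of 319 twi cells (80.3%, 75.5 to 84.5%). Its level was 130 CPM in WT (9 UMIs) and 608 CPM in twi (936 UMIs), a ratio of 4.67 (2.45 to 10.2). The highest cell had 4 *Cxcr6* UMIs in WT and 20 in twi, and 78 twi cells had 5 or more. The twi cells were deeper, at a median of 4238 UMIs against 2905. When every cell was thinned to 1000 UMIs, *Cxcr6* remained in 3 of 18 WT cells (16.7%) and 154 of 313 twi cells (49.2%), with 1 WT and 6 twi cells left out as too shallow. B-like cells, which should lack the transcript, showed it in 1 of 557 WT cells (0.18%) and 4 of 163 twi cells (2.45%), at median depths of 2003 and 2210 UMIs.

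*Cxcr3* was found in a large share of the effector CD8 T-like cells of both libraries. It was found in 9 of 19 WT cells (47.4%, 24.4 to 71.1%) and 215 of 319 twi cells (67.4%, 62.0 to 72.5%), with 304 CPM (21 UMIs) and 317 CPM (487 UMIs), a ratio of 1.04 (0.67 to 1.70). At 1000 UMIs per cell it remained in 2 of 18 (11.1%) and 98 of 313 cells (31.3%), a ratio of 3.25 (0.88 to 27.2) on 2 WT UMIs. Neutrophil-like cells gave the background, 2 of 227 WT cells (0.88%) and 1 of 58 twi cells (1.72%), at median depths of 2468 and 2416 UMIs. In B-like cells it was 3 of 557 WT cells (0.54%) and 7 of 163 twi cells (4.29%), a ratio of 7.02 (1.6 to 42.1). Each of these B-like cells held 1 UMI, and at 1000 UMIs per cell it remained in 1 of 510 WT and 0 of 161 twi cells. *Ccr2* in effector CD8 T-like cells was 130 CPM in WT (9 UMIs, 5 cells) and 114 CPM in twi (176 UMIs, 91 cells), a ratio of 0.88 (0.45 to 1.95). *Cx3cr1*, which long-lived cytotoxic T cells can carry, had 4 UMIs in 4 of 19 WT cells and 17 UMIs in 16 of 319 twi cells, a ratio of 0.19 (0.06 to 0.78). That interval included 1 as UMIs per cell (0.25, 0.083 to 1.03), at 1000 UMIs per cell (0.086, 0.0099 to 1.03), in cells with a Y transcript and no *Xist* (0.097, 0.0019 to 1.21) and in clusters (0.46, 0.17 to 1.57). *Cxcr4* had 2 and 26 UMIs, a ratio of 0.58 (0.15 to 5.08), and *Cxcr2* had 2 and 1. Of the 5 receptors with at least 10 UMIs over both libraries here, 1 was at least 2-fold higher in twi, against 29.4% of the 8170 genes measured, and 1 at least 2-fold lower, against 12.7%. *Cxcr6*, *Ccr2*, *Cx3cr1* and *Cxcr4* had under 10 WT UMIs here, so they passed that limit only with their twi UMIs. The WT class held 69106 UMIs in all and the twi class 1538683.

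Neutrophil transcripts were also seen in the class, with *S100a8* and *S100a9* at 3.95 UMIs per cell in WT and 1.47 in twi. They were not particular to it: naive CD8 T-like cells had 3.84 and 1.13, and B-like cells 2.26 and 0.73. All 10 NK markers were present in the class in both libraries, at a median of 1 marker per cell and 9.47 and 4.97 UMIs per cell. The part of either set in the receptor ratios was not tested beyond what follows. Without the cells that held 2 or more NK markers, the *Cxcr6* ratio was 4.86 (2.22 to 13.3; 13 WT and 206 twi cells) and that of *Ccr2* was 2.13 (0.57 to 17.9), with 2 WT UMIs left. *Gzma* is in both the NK and the effector list, so this step can also remove cells by a marker of the class itself. It does not isolate the part of NK cells. Among cells with a Y transcript and no *Xist* (9 WT, 39 twi), the *Cxcr6* ratio was 2.70 (1.30 to 6.48). The *Cxcr6* ratio was 2.62 (1.97 to 3.56) where classes were taken from clusters, which put 56 WT and 457 twi cells in this class.

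**Figure D3:**
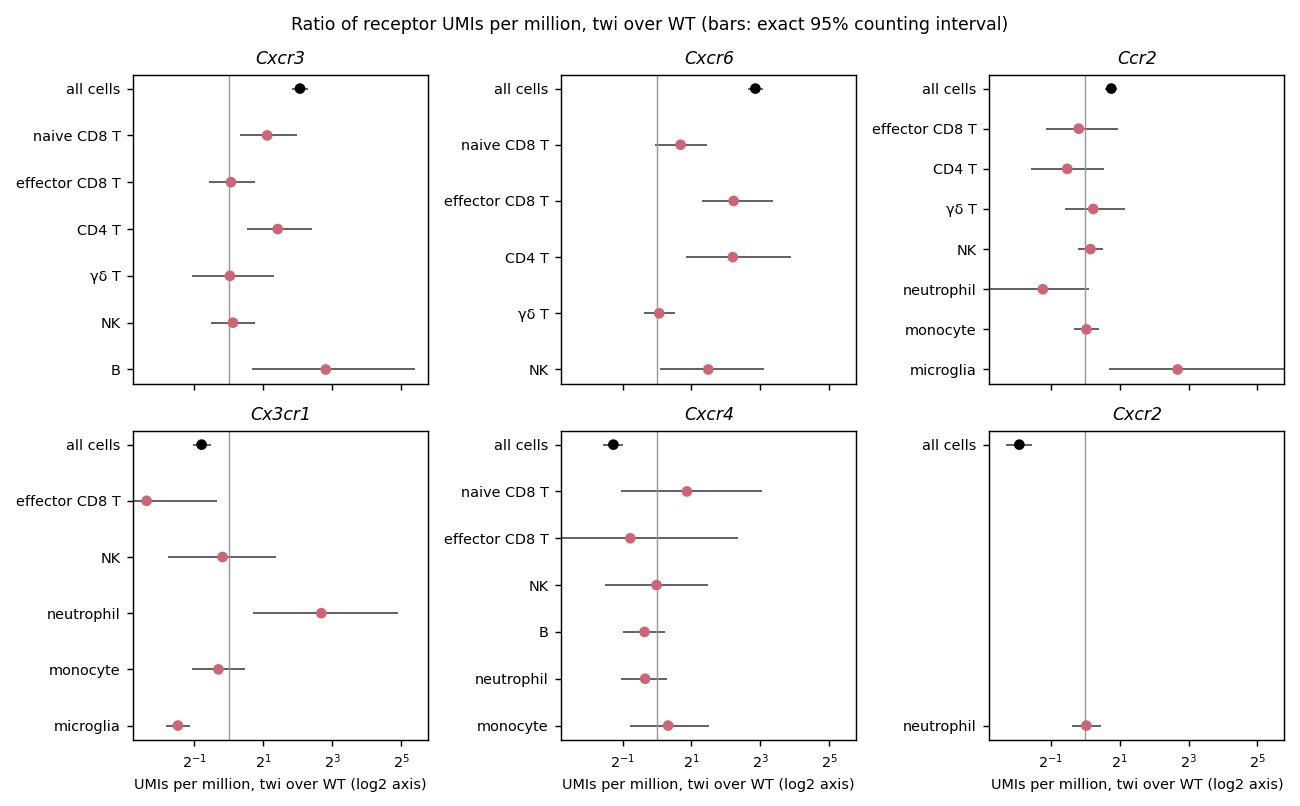
Ratio of CPM, twi over WT, for each receptor over all cells (black) and in each class with at least 10 UMIs over both libraries (red), on a log2 axis that cuts the longest bars; bars are exact 95% counting intervals and the grey line marks 1. The bars include 1 for *Cxcr2* in neutrophil-like, *Cxcr4* in B-like and *Ccr2* in monocyte-like cells, and lie off 1 for *Cxcr6* in effector CD8 T-like and *Cx3cr1* in microglia-like cells.

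Within a library, effector CD8 T-like cells were compared with naive CD8 T-like cells, which carry *Ccr7*, *Lef1* and *Dapl1*, to ask which receptors went with the effector markers. In twi, 3 of 5 receptors with enough UMIs were at least 2-fold higher in effector cells, against 17.2% of 8484 genes, and none was 2-fold lower, against 5.7%. *Ccr2* was 20.2 CPM in naive and 114 CPM in effector cells (7 and 176 UMIs), a ratio of 5.66 (2.69 to 14.3). *Cxcr6* was 127 and 608 CPM (44 and 936 UMIs), a ratio of 4.79 (3.54 to 6.64). *Cxcr3* was 130 and 317 CPM (45 and 487 UMIs), a ratio of 2.44 (1.79 to 3.39). *Cx3cr1* (0.96, 0.31 to 3.91) and *Cxcr4* (0.73, 0.32 to 1.87) had intervals that included 1. In WT, *Cxcr3* was 60.1 CPM in naive and 304 CPM in effector cells, a ratio of 5.06 (2.59 to 9.95; 2.96, 0.25 to 25.9, at 1000 UMIs per cell), and *Ccr2* was 6.32 and 130 CPM on 2 and 9 UMIs, a ratio of 20.6 (4.26 to 196). Of those 9 *Ccr2* UMIs, 2 were left without the effector cells that held 2 or more NK markers. *Cxcr6* was 79.0 CPM in WT naive cells (25 UMIs in 16 of 80 cells) and 130 CPM in effector cells, a ratio of 1.65 (0.68 to 3.65). Of the 3 receptors with enough UMIs in WT, 2 were at least 2-fold higher, against 12.8% of 4091 genes, and none lower, against 15.6%. One of the 2, *Ccr2*, passed the limit of 10 UMIs only with its 9 effector UMIs, the group where it was high. In twi, *Ccr2*, *Cx3cr1* and *Cxcr4* had 7, 4 and 8 naive UMIs, so they too passed only with their effector UMIs (176, 17 and 26). Neither the WT nor the twi count is therefore evidence that the receptors go with the effector state. *Cx3cr1*, *Cxcr4* and *Cxcr2* had too few UMIs to be counted in WT. The difference between the WT and twi ratios of *Cxcr6* was not tested. The WT ratio was 7.61 (1.83 to 44.5) in cells with a Y transcript and no *Xist* and 2.02 (1.27 to 3.24) in clusters, both above 1. The twi ratio was 16.5 (4.41 to 139) in cells with a Y transcript and no *Xist* and 12.9 (7.49 to 24.3) with 1 more marker required. Naive CD8 T-like cells themselves carried more *Cxcr3* in twi, 130 CPM against 60.1 CPM, a ratio of 2.16 (1.24 to 3.91).

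Over all CD8 T-like cells of twi, ordered by the number of effector minus naive markers, the 3 receptors reached their higher levels at different points. *Cxcr3* was 86.0 CPM at a difference of -2 or less (47 cells), 180 CPM at -1 to 0 (38 cells), 290 CPM at 1 to 2 (75 cells), 307 CPM at 3 to 4 (107 cells) and 322 CPM at 5 or more (171 cells). *Cxcr6* was 37.6, 230, 342, 619 and 652 CPM in the same bins. *Ccr2* was 5.38, 37.3, 27.6, 85.8 and 154 CPM. *Cxcr3* was therefore close to its highest level from a difference of 1, *Cxcr6* from 3, and *Ccr2* was highest in the last bin, where its interval (128 to 183 CPM) lay above that of the bin before (62.1 to 116 CPM). Median depth ranged from 3712 to 4369 UMIs over these bins. In WT, *Cxcr6* was between 54.7 and 147 CPM in all 5 bins, with 5 to 51 cells each. The last WT bin of 10 cells held all 9 *Ccr2* UMIs of the effector class, most of them in cells with 2 or more NK markers.

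**Figure D4:**
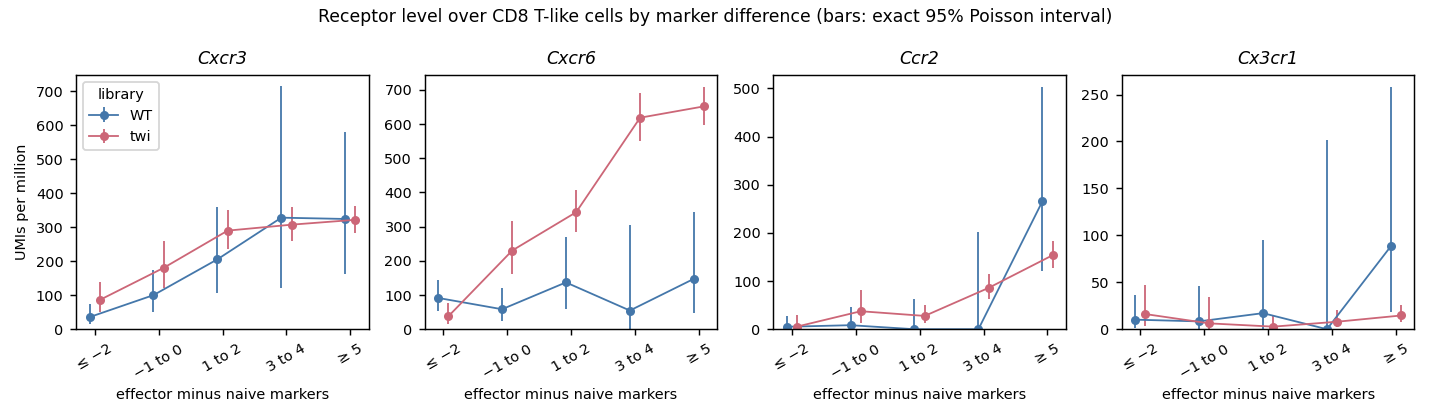
CPM of 4 receptors in CD8 T-like cells of WT and twi, by the number of effector markers minus naive markers in a cell; bars are exact 95% Poisson intervals. In twi, *Cxcr6* runs from 37.6 to 652 CPM and *Cxcr3* from 86.0 to 322 CPM, while *Cxcr6* in WT stays at or under 147 CPM.

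*Cxcr3* and *Cxcr6* were detected together in 184 of 319 twi effector CD8 T-like cells (57.7%). *Cxcr6* alone was seen in 72, *Cxcr3* alone in 31 and neither in 32 cells. *Cxcr6* was found in 85.6% of *Cxcr3*-positive cells (80.2 to 90.0%) and 69.2% of *Cxcr3*-negative cells (59.4 to 77.9%), but positive cells were deeper, at a median of 4950 against 3289.5 UMIs. With every cell at 1000 UMIs, *Cxcr6* was in 61.2% of 98 *Cxcr3*-positive (50.8 to 70.9%) and 43.7% of 215 *Cxcr3*-negative cells (37.0 to 50.6%), and both were seen in 60 of 313 cells (19.2%). At that depth *Cxcr6* was in 64.3% of 28 *Ccr2*-positive (44.1 to 81.4%) and 47.7% of 285 *Ccr2*-negative cells (41.8 to 53.7%), and *Cxcr3* in 32.1% (15.9 to 52.4%) and 31.2% (25.9 to 37.0%). In WT, 3 of 19 effector CD8 T-like cells carried both *Cxcr3* and *Cxcr6*.

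Twi effector CD8 T-like cells with at least 4 of the 6 cycling markers carried less *Cxcr6* and *Cxcr3* per UMI. *Cxcr6* was 255 CPM in 22 cycling and 668 CPM in 297 other cells, a ratio of 0.38 (0.29 to 0.50). *Cxcr3* was 233 and 331 CPM, a ratio of 0.70 (0.52 to 0.94), while *Ccr2* was 139 and 110 CPM, a ratio of 1.26 (0.82 to 1.86). Cycling cells were deeper, at a median of 10801 against 4003 UMIs, and the shares did not follow the levels for *Cxcr3*. It was found in 17 of the 22 cycling (77.3%) and 198 of 297 other cells (66.7%), and *Cxcr6* in 15 (68.2%) and 241 (81.1%).

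Of all classes, CD8 included, *Cxcr6* was highest in gamma-delta T-like cells, with a ratio close to 1. These cells, which express *Cd163l1* and, in twi, *Il17a*, a cytokine of innate-like T cells, held it in 10 of 10 WT cells and 43 of 46 twi cells (93.5%). The level was 1525 CPM in WT (49 UMIs) and 1593 CPM in twi (295 UMIs), a ratio of 1.04 (0.77 to 1.44), and the cells ran from 1 to 14 UMIs in WT and from 0 to 17 in twi. Their *Ccr2* was 436 and 513 CPM (14 and 95 UMIs), a ratio of 1.18 (0.67 to 2.24), and 34 of the 46 twi cells carried *Ccr2* and *Cxcr6* together. Their *Cxcr3* was 249 and 254 CPM, a ratio of 1.02 (0.48 to 2.5). The class rests on *Cd163l1*, *Sox13* and *Blk*, since the T cell receptor constant genes are not among the symbols used here.

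CD4 T-like cells had more of both in twi. *Cxcr3* was found in 4 of 48 WT cells (8.33%) and 26 of 70 twi cells (37.1%), at 86.5 and 231 CPM, a ratio of 2.67 (1.44 to 5.33). *Cxcr6* was found in 4 of 48 and 19 of 70 cells (27.1%), at 33.3 and 153 CPM, a ratio of 4.59 (1.8 to 15), and *Ccr2* at 106 and 74.3 CPM, a ratio of 0.70 (0.34 to 1.46). Median depths were close here, at 3100.5 and 3064.5 UMIs. The T cells without a clear call had *Cxcr3* at 157 and 315 CPM, a ratio of 2.0 (1.45 to 2.83), and *Cxcr6* at 236 and 461 CPM, a ratio of 1.96 (1.5 to 2.59).

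NK-like cells, which carry *Gzma* and *Ncr1*, had *Cxcr3* at close levels in both libraries, 153 and 166 CPM (42 and 46 UMIs), a ratio of 1.08 (0.70 to 1.69). Their *Cxcr6* was 21.9 and 61.5 CPM on 6 and 17 UMIs, a ratio of 2.80 (1.05 to 8.69).

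The order of *Cxcr3* levels in twi ran from effector CD8 T-like (317 CPM, 289 to 346) through gamma-delta T-like (254 CPM, 186 to 337), CD4 T-like (231 CPM, 175 to 300), NK-like (166 CPM, 122 to 222) and naive CD8 T-like cells (130 CPM, 94.7 to 174) to the other 4 classes, at 17.3 CPM or less. The interval of each of the 5 upper classes overlapped that of its neighbour. The T cells without a clear call, left out of this order, had 315 CPM (276 to 358). For *Cxcr6* in twi, gamma-delta T-like (1416 to 1786 CPM), effector CD8 T-like (570 to 649 CPM) and CD4 T-like cells (108 to 210 CPM) had separate intervals. CD4 and naive CD8 T-like cells (92.2 to 170 CPM) overlapped, and NK-like cells (61.5 CPM, 35.8 to 98.4) overlapped the latter. The T cells without a clear call (461 CPM, 414 to 513) lay between effector CD8 and CD4 T-like cells.

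As *Cxcr3* and *Cxcr6* were the receptors that were at least 2-fold higher in twi and shared cells, their promoter windows from RefSeq (GRCm38.p6) are shown, 250 bases before to 50 after the start of the transcript, 5′ to 3′. That of *Cxcr3* is chrX:101734098-101734397 on the minus strand and that of *Cxcr6* chr9:123806227-123806526 on the plus strand. The gene place of *Cxcr3* given above, from another annotation, begins at chrX:101734269 on the minus strand, upstream of the RefSeq start. Part of the 250 bases before the RefSeq start of *Cxcr3*, with the match at -110 below, therefore lies inside that gene place. Capitals mark the letters ACCACA, the reverse complement of TGTGGT, the core bound by RUNX factors.
Cxcr3: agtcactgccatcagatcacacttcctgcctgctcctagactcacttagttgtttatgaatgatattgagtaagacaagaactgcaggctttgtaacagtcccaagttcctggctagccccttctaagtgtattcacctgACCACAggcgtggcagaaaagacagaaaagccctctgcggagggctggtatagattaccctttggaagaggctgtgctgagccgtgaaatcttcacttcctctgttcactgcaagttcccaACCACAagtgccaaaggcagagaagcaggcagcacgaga
Cxcr6: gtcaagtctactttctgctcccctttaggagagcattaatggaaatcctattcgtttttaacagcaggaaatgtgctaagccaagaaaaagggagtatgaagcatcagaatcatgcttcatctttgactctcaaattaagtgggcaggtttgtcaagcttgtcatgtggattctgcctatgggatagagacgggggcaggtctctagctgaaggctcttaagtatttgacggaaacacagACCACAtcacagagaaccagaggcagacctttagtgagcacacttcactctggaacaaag
TGTGGT was searched on both strands in the windows of all 6 receptors. It was found in those of *Cxcr3* (starting at -110 and 11 from the start site), *Cxcr6* (-10) and *Cx3cr1* (-54). For comparison, 16.8% of 32851 promoter windows of 300 bases hold it. Windows of other lengths and those of a single chromosome were left out of this comparison. AGGAAGT, a core of ETS factors, was found only in that of *Cxcr3*, at -230 and -16 (9.35% of windows), and GGTGTGA, a core of T-box factors, in none of the 6 (3.98% of windows). These matches are a description of letters, and no binding was measured.

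*Ccr2*, the receptor of classical monocytes, had intervals that included 1 in the monocyte-like and NK-like classes. In monocyte-like cells it was found in 19 of 30 WT cells (63.3%) and 30 of 45 twi cells (66.7%), at 672 CPM (106 UMIs) and 689 CPM (174 UMIs), a ratio of 1.03 (0.80 to 1.32). Where classes were taken from clusters it was 1.74 (1.43 to 2.12). A cell held up to 16 UMIs in each library. In NK-like cells it was found in 49 of 86 WT (57.0%) and 46 of 73 twi cells (63.0%), at 442 CPM (121 UMIs) and 492 CPM (136 UMIs), a ratio of 1.11 (0.86 to 1.43). B-like cells gave the background, 1 of 557 WT cells (0.18%) and 2 of 163 twi cells (1.23%). In the monocyte-like class, cells with more classical markers had 868 CPM in WT (16 cells, 96 UMIs) and 823 CPM in twi (32 cells, 166 UMIs), and cells with more non-classical markers 178 CPM (12 cells, 6 UMIs) and 134 CPM (12 cells, 6 UMIs). The classical over non-classical ratio was 4.88 (2.16 to 13.6) in WT and 6.13 (2.76 to 16.9) in twi.

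Where *Ccr2* was otherwise near background, a few cells held it. In WT neutrophil-like cells, 43 UMIs lay in 8 of 227 cells, of which the highest had 12, and those cells had a median of 8 monocyte markers against 2 in the rest. In twi microglia-like cells, 26 UMIs lay in 3 of 16 cells, with 12 and 10 in the highest 2, against 2 UMIs in 2 of 19 WT cells. The 3 cells had a median of 5 of the 12 microglia markers against 12 in the rest, and 8 monocyte markers against 6. The microglia-like ratio of 6.43 (1.61 to 55.9) rests on them.

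*Cx3cr1* was highest in microglia-like cells and lower there in twi per UMI. It was found in 18 of 19 WT cells (94.7%) and 14 of 16 twi cells (87.5%), at 3453 CPM (167 UMIs) and 1237.5 CPM (121 UMIs), a ratio of 0.36 (0.28 to 0.46). Cells ran from 0 to 16 UMIs in WT, with a median of 9, and from 0 to 25 in twi, with a median of 3.5. In this class, 18.6% of the 2447 genes with at least 10 UMIs were at least 2-fold lower. The twi cells had a median of 4982 UMIs against 2551, and per cell the means were 8.79 and 7.56 UMIs, a ratio of 0.86 with an interval (0.68 to 1.09) that included 1. At 1000 UMIs per cell, *Cx3cr1* was in 15 of 18 WT cells (83.3%) and 10 of 16 twi cells (62.5%), and the ratio was 0.39 (0.23 to 0.66). Among cells with *P2ry12* or *Tmem119*, genes of resident microglia, it was 0.36 (0.28 to 0.46; 18 WT and 13 twi cells). Border macrophage markers were at 0 in WT, and 2 of 5 were found in twi, with 29 UMIs; their part in the result was not tested. B-like cells gave the background for *Cx3cr1*, 7 of 557 WT cells (1.26%) and 2 of 163 twi cells (1.23%).

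In monocyte-like cells *Cx3cr1* was found in 15 of 30 WT and 21 of 45 twi cells, at 171 CPM (27 UMIs) and 139 CPM (35 UMIs), a ratio of 0.81 (0.48 to 1.39). Within the class, its level per UMI went opposite to that of *Ccr2* in twi, while the WT interval included 1. Cells with more classical markers had 127 CPM in WT and 94.2 CPM in twi, and cells with more non-classical markers 237 and 358 CPM. The classical over non-classical ratio was 0.53 (0.21 to 1.47) in WT and 0.26 (0.13 to 0.55) in twi. The classical cells were deeper, at medians of 6179.5 against 2570 UMIs in WT and 5301.5 against 2729.5 in twi. A *Cx3cr1* UMI was found in 50% of both kinds of cell in WT. In twi the shares were 37.5% of classical and 75% of non-classical cells. CD4 T-like cells had no *Cx3cr1* UMI in 48 WT cells (permitting up to 6.25%) nor in 70 twi cells (up to 4.29%), and gamma-delta T-like cells none in 10 and 46 cells (up to 30.0% and 6.52%). These limits are for cells with a UMI at this depth, cover counting error only, and do not limit expression.

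**Figure D5:**
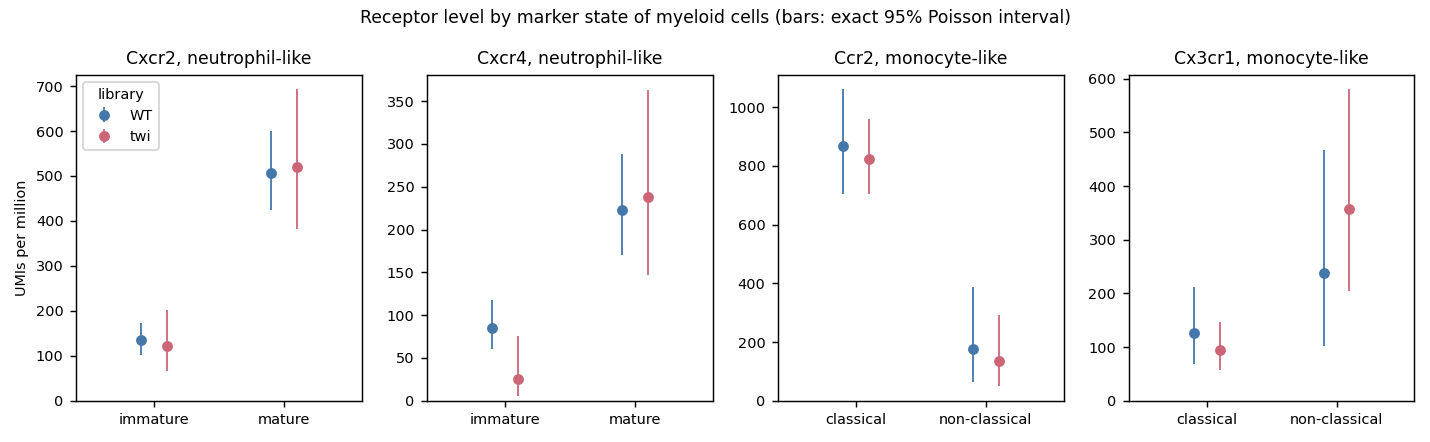
CPM of *Cxcr2* and *Cxcr4* in neutrophil-like cells with more immature or more mature markers, and of *Ccr2* and *Cx3cr1* in monocyte-like cells with more classical or more non-classical markers, in WT and twi; bars are exact 95% Poisson intervals. In both libraries *Cxcr2* and *Cxcr4* are higher in mature neutrophil-like cells and *Ccr2* in classical monocyte-like cells.

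*Cxcr2* was held mainly by neutrophil-like cells, with a ratio close to 1. It was found in 126 of 227 WT cells (55.5%, 48.8 to 62.1%) and 37 of 58 twi cells (63.8%, 50.1 to 76.0%), at 286 CPM (222 UMIs) and 293 CPM (62 UMIs), a ratio of 1.02 (0.76 to 1.36). The class itself was 17.9% of WT cells and 4.81% of twi cells, a ratio of 0.27 (0.20 to 0.36). B-like cells gave the background, 2 of 557 WT cells (0.36%) and 0 of 163 twi cells (permitting up to 1.84%). NK-like, naive CD8 T-like, CD4 T-like and monocyte-like cells had no *Cxcr2* UMI in either library.

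Within the class, *Cxcr2* was higher per UMI in cells with more of the mature markers, which include *Csf3r*, *Retnlg* and *Il1b*. It was 135 CPM in 88 WT cells with more immature markers, which encode granule proteins such as *Ltf* and *Camp*, and 507 CPM in 115 with more mature markers, a ratio of 3.76 (2.75 to 5.19). In twi it was 121 CPM in 19 and 520 CPM in 37 cells, a ratio of 4.31 (2.33 to 8.49). *Cxcr4* was also higher per UMI in the mature cells, at 85.3 and 223 CPM in WT, a ratio of 2.62 (1.71 to 4.04), and at 25.9 and 238 CPM in twi, a ratio of 9.18 (2.74 to 48.1) that rests on 3 UMIs in the immature cells. Immature cells were deeper, at medians of 3942 against 1518 UMIs in WT and 5372 against 1754 in twi. In WT, similar shares of immature (35.2%) and mature cells (33.0%) had a *Cxcr4* UMI. For *Cxcr2* the WT shares were 43.2% (32.7 to 54.2%) of immature and 63.5% (54.0 to 72.3%) of mature cells. In twi they were 57.9% (33.5 to 79.7%) and 67.6% (50.2 to 82.0%), and the intervals overlapped in both libraries.

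*Cxcr4* was seen in B-like, neutrophil-like and monocyte-like cells, and its ratio had an interval that included 1 in each class with at least 10 of its UMIs. In neutrophil-like cells it was found in 80 of 227 WT cells (35.2%) and 17 of 58 twi cells (29.3%), at 144 CPM (112 UMIs) and 113 CPM (24 UMIs), a ratio of 0.79 (0.48 to 1.23). In B-like cells it was found in 95 of 557 (17.1%) and 25 of 163 cells (15.3%), at 98.6 CPM (120 UMIs) and 76.7 CPM (31 UMIs), a ratio of 0.78 (0.51 to 1.16). At 1000 UMIs per cell the B-like ratio was 0.43 (0.18 to 0.90), and in effector CD8 T-like cells taken from clusters the ratio was 0.38 (0.18 to 0.90), both below 1. In monocyte-like cells it was 69.7 and 87.2 CPM, a ratio of 1.25 (0.58 to 2.85). The lowest class in twi was CD4 T-like, with *Cxcr4* in 1 of 70 cells (1.43%), against 3 of 48 WT cells (6.25%). In the B lineage, WT cells with 2 or more immature markers, such as *Vpreb1* and *Rag1*, had 118 CPM (84 cells, 32 UMIs) and mature cells 86.6 CPM (274 cells, 48 UMIs), a ratio of 1.37 (0.85 to 2.18), and the ratio in twi was 1.16 (0.33 to 3.31).

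The ligands of these receptors were measured in the same cells, so only those made by CD45+ cells could be seen. Of 15 ligand genes, 14 were among the gene symbols used here and 6 had at least 10 UMIs. Of these, 4 were at least 2-fold higher in twi (6.01% of all genes) and 1 at least 2-fold lower (9.57% of all genes). Their median log2 ratio was 1.40, against -0.04 over all genes. *Cxcl16* and *Cxcl3*, with 1 and 3 WT UMIs, passed the limit of 10 only with their twi UMIs. The counts and the median are therefore not evidence that the ligands go with twi. *Cxcl16*, the ligand of *Cxcr6*, had 1 WT and 63 twi UMIs, a ratio of 49.2 (8.51 to 1974). Of the twi UMIs, 52 lay in 10 of 16 microglia-like cells, where WT had none in 19 cells. The highest of these twi cells held 22 of the 52. *Cxcl10*, a ligand of *Cxcr3*, had 37 and 293 UMIs, a ratio of 6.18 (4.38 to 8.96), of which effector CD8 T-like cells held 130 in twi, in 39 of 319 cells. In that class *Cxcl10* was 116 CPM in WT (8 UMIs, all in 1 cell) and 84.5 CPM in twi. *Cxcl9*, the other ligand of *Cxcr3* in the table, had 0 and 2 UMIs.

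Among the ligands of *Ccr2*, *Ccl12* had 22 WT and 83 twi UMIs, a ratio of 2.95 (1.82 to 4.95), of which microglia-like cells held 20 and 80. In that class *Ccl12* was 414 CPM in WT and 818 CPM in twi, a ratio of 1.98 (1.20 to 3.41). The highest twi cell held 35 of the 80 UMIs. *Ccl2* had 10 and 32 UMIs, a ratio of 2.5 (1.20 to 5.70), of which microglia-like cells held 0 and 19. *Cxcl2*, a ligand of *Cxcr2*, had 1531 and 756 UMIs, a ratio of 0.39 (0.35 to 0.42), and lay mainly in neutrophil-like cells, which held both ligand and receptor. In that class *Cxcl2* was 1824 CPM in WT and 2331.5 CPM in twi, a ratio of 1.28 (1.15 to 1.42). *Cxcl3* had 3 and 7 UMIs, a ratio of 1.82 (0.42 to 10.9). *Cx3cl1* and *Cxcl12*, the ligands of *Cx3cr1* and *Cxcr4*, had no UMI in either library.

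Of 18 other chemokine receptor genes, 11 had at least 10 UMIs; 3 were at least 2-fold higher in twi, against 6.01% of all genes, and 2 at least 2-fold lower, against 9.57%. Of the 3, *Ccr3* (5 WT and 14 twi UMIs) and *Ccr4* (3 and 16) passed the limit of 10 only with their twi UMIs. With at least 25 UMIs, 8 remained. Of these, 1 was higher, against 4.69% of 10267 genes, and 2 were lower, against 7.35%. The 1 that was higher, *Ccr9*, had 20 WT UMIs and passed the limit of 25 only with its twi UMIs. The counts of higher genes are therefore not evidence that these receptors go with twi. *Ccr1*, a receptor of neutrophils and monocytes, had 283 WT and 112 twi UMIs, a ratio of 0.31 (0.25 to 0.39), and *Cxcr5*, the follicular homing receptor of B cells, had 44 and 24, a ratio of 0.43 (0.25 to 0.72). *Ccr1* was 295 and 274 CPM in neutrophil-like cells, a ratio of 0.93 (0.68 to 1.24), as *Cxcr2* was. *Ccr9*, a gut homing receptor, had 20 and 52 UMIs, a ratio of 2.03 (1.19 to 3.59). Of 18 signalling genes with at least 10 UMIs, 1 was at least 2-fold higher (5.56%) and 1 lower (5.56%), near or below the shares of all genes, and their median log2 ratio was -0.12. *Rgs1*, which damps chemokine receptor signals, had 377 and 1633 UMIs, a ratio of 3.38 (3.02 to 3.79), and in effector CD8 T-like cells 232 and 414 CPM, a ratio of 1.79 (1.09 to 3.15). *Rgs18* had 235 and 113 UMIs, a ratio of 0.38 (0.30 to 0.47).

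For each receptor, the 3 genes with the most similar pattern over 14 class sums of at least 20 cells were found by Pearson's r of log2(CPM + 10). These sums share 2 libraries, so r is a description. The limit also left out the WT sums of effector CD8 T-like (19 cells) and gamma-delta T-like cells (10 cells). For *Cxcr3* and *Cxcr6*, those classes therefore entered from twi only. For *Cxcr3* they were *Aak1* (r = 0.965), *Zap70* (0.956), a kinase of the T cell receptor, and *Pglyrp2* (0.956). For *Cxcr6* they were *Adgrg5* (0.927), *Ccdc92* (0.925) and *Gm20069* (0.923). *Ccr2* was most like *Il3ra* (0.925), *Capns1* (0.923) and *Vim* (0.921), and *Cx3cr1*, without microglia-like cells, which were under 20 in each library, most like *Ccl9* (0.932), *Rbpms* (0.931) and *Rap1b* (0.898). *Cxcr4* was most like *Atp6v1g1* (0.95), *Stxbp2* (0.946) and *Aldh2* (0.931). *Cxcr2* had the closest neighbours, *Tinagl1*, *Il1f9* and *Tmem40*, each at 0.995.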

How the data were processed

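The files the authors deposited hold unnormalised UMI counts for each gene in each barcode, made with Cell Ranger 2.1.1 on mm10 according to the submitters' processing notes, and the barcodes they had called as cells. Gene places come from GENCODE annotation of GRCm38, the same build, and promoters from RefSeq; all 6 receptors matched. Barcodes with at most 15% mitochondrial UMIs were kept.

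Classes needed 2 of 4 T markers, 4 of 10 NK, 4 of 9 B, 7 of 14 neutrophil, 5 of 12 monocyte or 5 of 12 microglia markers. CD8 T-like cells had *Cd8a* or *Cd8b1* and no *Cd4*; effector cells had at least 2 more effector than naive markers and naive cells at least 1 naive and no more effector than naive markers. Cells with markers of 2 or more lineages (28 WT, 25 twi) were set apart as possible doublets and no doublet caller was run. These limits were set after the files were read.

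UMIs were summed per class and library and scaled to CPM. Errors are exact Poisson intervals for levels, exact Clopper-Pearson intervals for shares and exact conditional intervals for ratios (95%; scipy 1.17.1). A count of 0 is read as fewer than 3 counts. Named genes were the receptors, ligands with at least 10 UMIs, other listed genes with at least 25 UMIs and a 2-fold ratio, and 3 similar genes per receptor. Intervals were tested on simulated Poisson counts only, so counts that vary more between cells were not covered. The B-like, neutrophil-like, NK-like and microglia-like classes were tested on simulated cells, and the other classes were not. The alternatives were mitochondrial limits of 10% or none, UMIs per cell, thinning to 1000 UMIs, leaving out the deepest 5% of cells, cells with a Y transcript (*Ddx3y*, *Eif2s3y*, *Kdm5d* or *Uty*) and no *Xist*, 1 more marker, and Leiden clusters (scanpy 1.11.5, 2000 variable genes without the receptors, 20 components, 15 neighbours, resolution 1.5). The receptors and the lists were chosen with earlier results of these data known.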

Additional observations from a re-analysis of the deposited data

Results flagged for a closer look

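The *Cx3cr1* ratio, twi over WT, was below 1 in some classes and above 1 in another. It was 0.36 (95% counting interval 0.28 to 0.46) in microglia-like cells and 0.19 (0.06 to 0.78) in effector CD8 T-like cells, but 6.42 (1.63 to 29.9) in neutrophil-like cells. The effector value rests on 4 WT UMIs, and its interval reached 1.03 as UMIs per cell, 1.03 at 1000 UMIs per cell, 1.21 in cells with a Y transcript and no *Xist* and 1.57 in clusters. The microglia-like value as UMIs per cell was 0.86 (0.68 to 1.09). The neutrophil-like value rests on 4 UMIs in 3 of 227 WT cells and 7 UMIs in 3 of 58 twi cells, and the positive twi cells had a median of 11 monocyte markers against 2 in the rest. The difference between classes was not tested.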

How the results depend on the processing

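Of 170 ratios recomputed with other settings, 145 stayed within their counting interval and 25 moved outside it. No ratio whose interval excluded 1 changed direction, but some of those intervals came to include 1, as given above for *Cx3cr1* in effector CD8 T-like and microglia-like cells and for *Cxcr3* effector over naive in WT. Of the ratios whose interval included 1, these lay on either side of 1: *Ccr2* in effector CD8 T-like (0.69 to 1.45) and monocyte-like cells (0.89 to 1.74), *Cxcr2* in neutrophil-like cells (0.86 to 1.28), *Cxcr4* in effector CD8 T-like cells (0.38 to 1.17), and effector over naive in twi for *Cxcr4* (0.48 to 1.05) and *Cx3cr1* (0.70 to 2.39). A mitochondrial limit of 10%, no such limit and leaving out the deepest 5% of cells moved none of 23 ratios each. As UMIs per cell, the ratios over all cells were 5.64 for *Cxcr3*, 9.76 for *Cxcr6*, 2.28 for *Ccr2*, 0.78 for *Cx3cr1*, 0.56 for *Cxcr4* and 0.36 for *Cxcr2*, and 0.86 for *Cx3cr1* in microglia-like cells. At 1000 UMIs per cell they were 6.95 for *Cxcr3*, 8.49 for *Cxcr6*, 2.40 for *Ccr2*, 0.47 for *Cx3cr1* and 0.48 for *Cxcr2*, with 3.25 for *Cxcr3* in effector CD8 T-like and 0.43 (0.18 to 0.90) for *Cxcr4* in B-like cells. In cells with a Y transcript and no *Xist* they were 2.72 for *Cxcr3*, 5.65 for *Cxcr6*, 0.39 for *Cx3cr1*, 0.53 for *Cxcr4* and 0.13 for *Cxcr2*. There the effector over naive ratio of *Cxcr6* was 16.5 in twi and 7.61 in WT, *Cx3cr1* in microglia-like cells was 0.16 (4 twi and 8 WT cells) and *Cxcr4* in B-like cells 0.45. With 1 more marker required, *Cxcr6* effector over naive in twi was 12.9, and in clusters *Ccr2* in monocyte-like cells was 1.74 (1.43 to 2.12). Chosen after seeing the data, leaving out effector cells with 2 or more NK markers gave 2.13 for *Ccr2*. The causes were not tested. *Cx3cr1* effector over naive in twi had no value in 2 of the alternatives, since a count was 0. With at least 25 UMIs, 1 of 8 other receptors was at least 2-fold higher, against 4.69% of all genes. With at least 10 UMIs it was 3 of 11, against 6.01%. *Ccr9* at the limit of 25, and *Ccr3* and *Ccr4* at 10, passed only with their twi UMIs.

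No paired analysis was possible because each genotype gave a single library. The 19 WT effector CD8 T-like cells limit every ratio in that class, and microglia-like cells numbered under 20 in each library.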
